A study of Mus musculus with 12 samples.

Results

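The genes described here encode 7 proteins that read the 3′ end of introns for the spliceosome: Sf1, Sf3b1, U2af1, U2af2, Puf60, Rbm39 and Rbm17. Their RNA was followed in iCLIP data, in which ultraviolet light fixes a protein to the RNA it touches and the fixed RNA is sequenced after immunoprecipitation. Members were the clusters, stretches of genome with CLIP reads, whose centre lay inside one of these genes on the gene's strand. By this rule 371 of 124941 listed clusters were members, 117 of 36227 in the table of Puf60 with exon 5, 131 of 39454 in that of Puf60 without exon 5 and 123 of 49260 in that of Rbm38.

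The cells were N2A, a mouse neuroblastoma line. Each of its engineered derivatives carried a Flp-in transgene under doxycycline control (1 µg/ml) for a protein pulled down with an anti-Flag antibody, and all cells received 150 mJ/cm2 of ultraviolet light. Every protein had 3 CLIP libraries and 1 size-matched input, which is RNA of the same size range without immunoprecipitation, so 12 samples in all. Puf60 with exon 5 was induced for 48 h in its CLIP libraries but for 24 h in its input, and Puf60 without exon 5 and Rbm38 for 24 h in CLIP and input alike. The isoform and the length of induction thus cannot be told apart. The bound protein was an induced, tagged copy, and the labels leave unsaid whether replicates were separate cultures.

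During splicing, Sf1 binds the branch point and the U2af2 and U2af1 dimer binds the pyrimidine tract and the AG at the intron's end. Sf3b1, the large scaffold of the U2 snRNP, then takes the place of Sf1 at the branch point. U2af1, U2af2, Puf60, Rbm39 and Rbm17 each hold a U2AF homology motif, a domain that grips short tryptophan-containing peptides in partners such as Sf1 and Sf3b1. Several splicing factors are known to bind RNA of their own genes and of related factors.

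For every cluster the authors' table holds a log2 fold, read as CLIP over input, with its p-value and the adjusted form of it, and no value per library. Depth and the spread between replicates are thus unknown, and no test across replicates could be made. A cluster is called enriched below at an adjusted p under 0.05, and all such clusters had a log2 fold above 0. The p-values given for member clusters below input were large, so this call seems to look for clusters above input alone. A place said to be below input is so by the sign of its log2 fold, which was not tested. The strand was read from the grid on which cluster starts fall. In protein-coding genes with a strand in the RefSeq promoter table, 93.5%, 93.6% and 94.4% of the enriched clusters of the 3 tables lay on the gene's strand by this reading. Of 15 neuroblast and neuronal markers, 8 had a listed cluster in any table, among them Phox2a, Hand2 and Gata2, and those with none included Th, Dbh, Gata3, Isl1, Nefl and Nefm. Of 4 fibroblast markers none had one, and of 2 blood markers only Ptprc did, in the Rbm38 table. RNA levels were not analysed here.

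Both Puf60 isoforms were enriched over these transcripts at a higher share of clusters than over their tables as a whole. With exon 5, 74 of 117 member clusters (63.2%) were enriched, against 39.1% of all listed clusters and 39.5% of those on the strand of a single protein-coding gene. Without exon 5, 72 of 131 (55.0%) were enriched, against 36.1% and 36.5%. Rbm38 went the other way, with 52 of 123 (42.3%) against 50.9% and 52.0%. The median log2 fold over all listed member clusters in the authors' deposited tables was 1.44 with exon 5 and 1.14 without it, against 0.24 and 0.11 over the whole tables. For Rbm38 it was 0.69, against 1.04. Among enriched Puf60 clusters the members were not the stronger ones, with medians of 2.31 and 2.11 in the authors' deposited tables against 2.89 and 2.80 for all enriched clusters. Some member clusters had a p under 0.05 beside an adjusted p of 1 and were not counted as enriched. They were 11 of 117, 13 of 131 and 17 of 123, where the whole tables gave 4.99%, 4.27% and 11.7%. The 7 genes were proposed with earlier results of these data in view, so the shares describe them and were not tested.

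**Figure D1:**
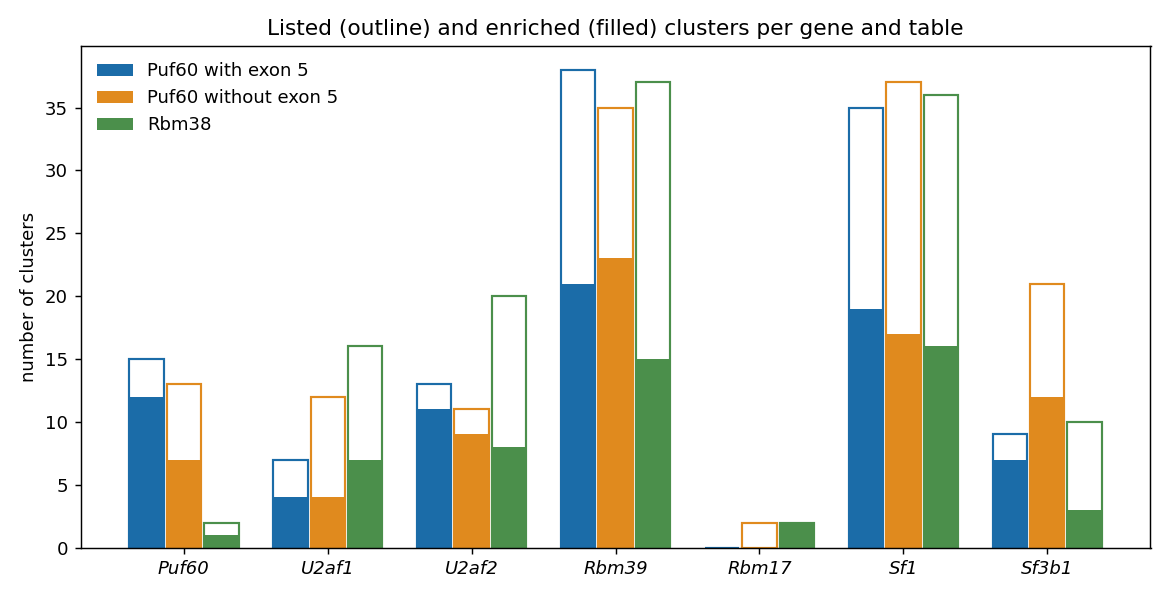
Number of listed (outline) and enriched (filled) clusters in each of the 7 genes, for Puf60 with exon 5 (blue), Puf60 without exon 5 (orange) and Rbm38 (green). Rbm39 and Sf1 hold the most clusters in every table, and Rbm17 has none enriched for either Puf60 isoform.

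The clusters were spread unevenly over the 7 genes. Rbm39 held 21, 23 and 15 enriched clusters (Puf60 with exon 5, without it, Rbm38) and Sf1 held 19, 17 and 16. U2af2 followed with 11, 9 and 8, then Sf3b1 with 7, 12 and 3, Puf60 with 12, 7 and 1, U2af1 with 4, 4 and 7, and Rbm17 with 0, 0 and 2. Among 3403 protein-coding genes in which Puf60 with exon 5 was enriched somewhere, 48 had as many as Rbm39 or more, and 67 as many as Sf1 or more. Without exon 5 these numbers were 40 and 83 of 3425 genes. For Puf60, U2af2, Sf3b1 and U2af1 they were 157, 186, 367 and 794 with exon 5 and 378, 256, 156 and 783 without. Among 5088 such genes of Rbm38, they were 154 for Sf1, 170 for Rbm39, 578 for U2af2 and 724 for U2af1. For Sf3b1, Rbm17 and Puf60 they were 2135, 3137 and 5088. The genes compared include the named gene itself, and for them only clusters that lay in 1 gene were counted. The counts given for the 7 genes took every enriched cluster on the gene's strand. Relative to gene length Sf1 stood above Rbm39. Enriched clusters covered 13.6% of its 14366 nt with exon 5 and 14.3% without, while they covered 6.06% and 5.61% of the 33000 nt of Rbm39. U2af2, at 7.08% and 8.66%, also stood above Rbm39, and Puf60 did with exon 5 (8.90%) but not without (4.86%).

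**Figure D2:**
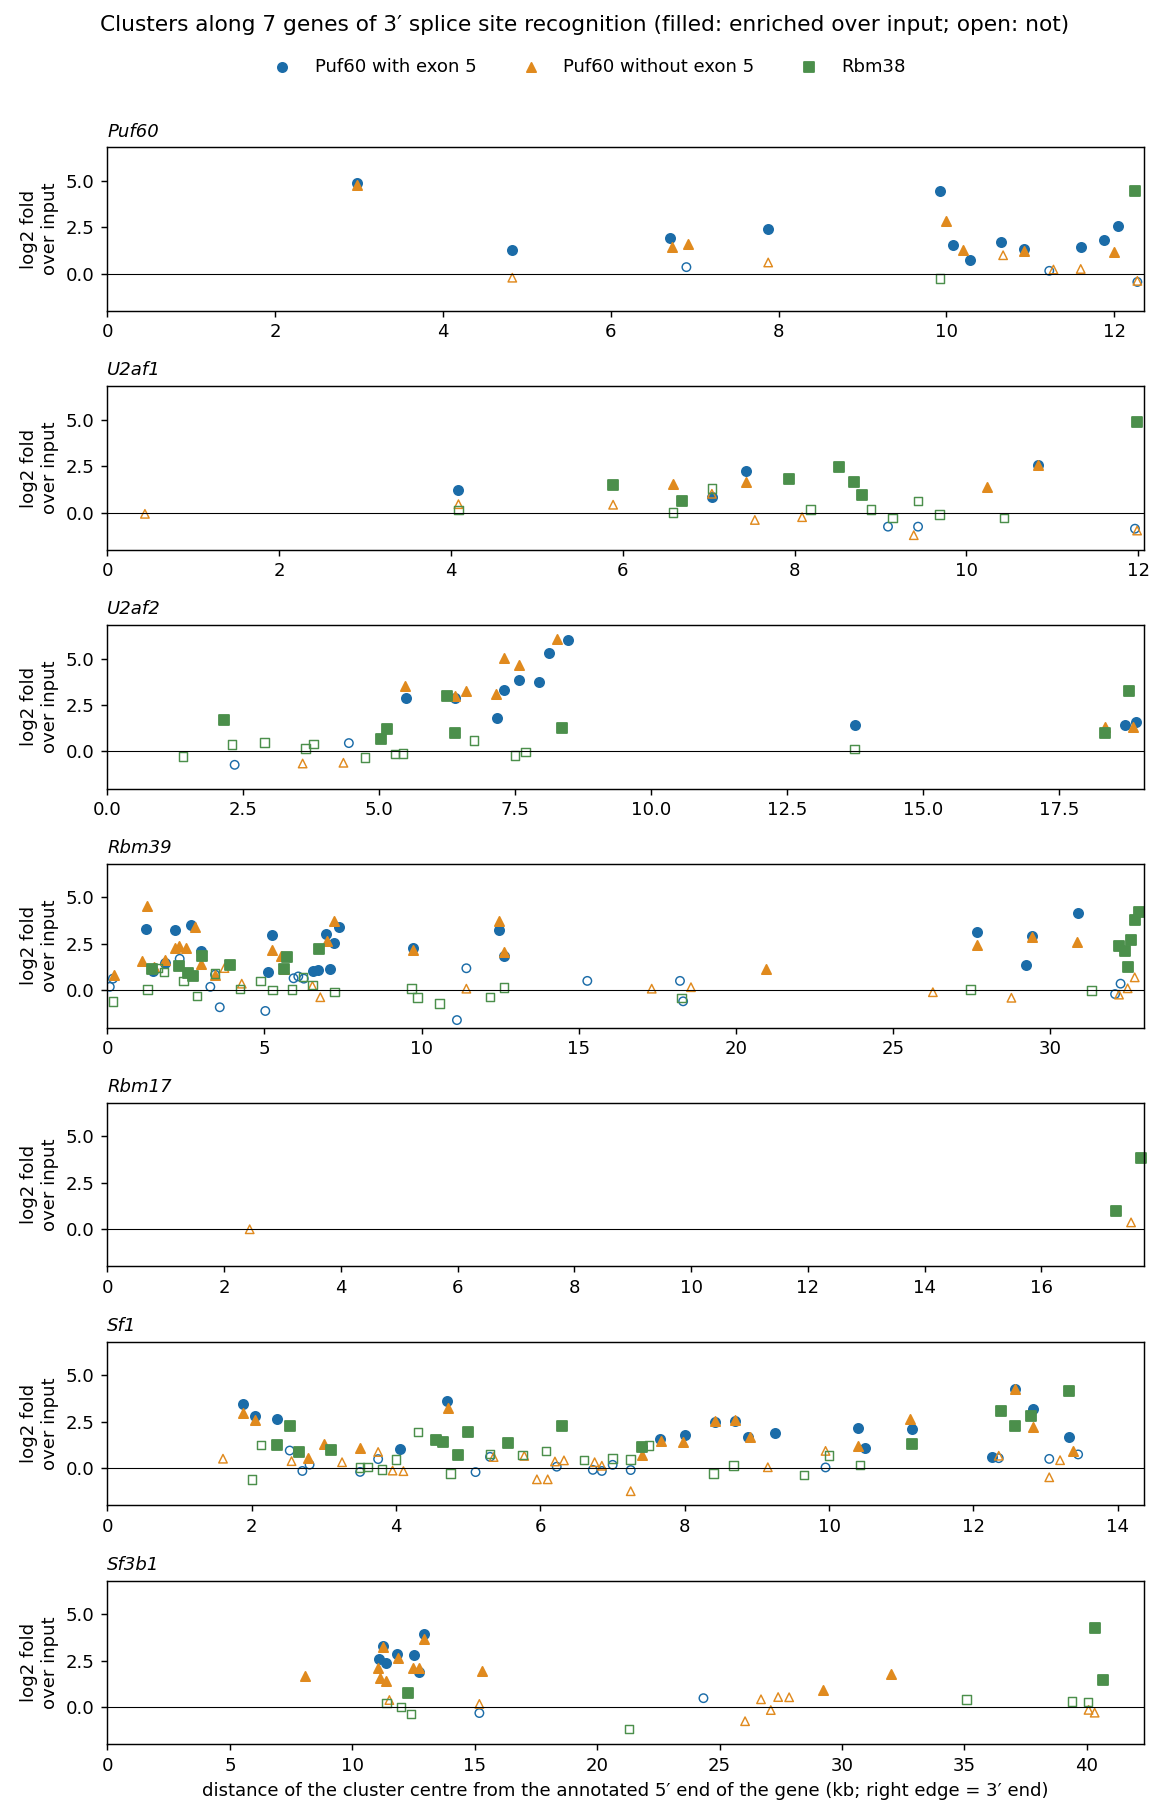
Log2 fold over input of every member cluster (vertical axis) against the distance of its centre from the gene's annotated 5′ end in kb (horizontal axis, ending at the 3′ end), 1 panel per gene; filled symbols are enriched clusters and open symbols are not. Rbm38 (green squares) reaches its highest value near the right edge of each panel, while Puf60 (blue circles, orange triangles) peaks inside Puf60, U2af2 and Sf3b1.

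Sf1, the branch point binding protein (gene 22668, GRCm38/mm10 chromosome 19, 6363673 to 6378038, plus strand), had enriched Puf60 clusters at several places from its 5′ to its 3′ part. The highest cluster was the same for both isoforms, 6376201 to 6376300, at 4.25 with exon 5 and at 4.24 without it on the log2 scale in the authors' deposited tables. Its centre lay 1787 nt before the annotated 3′ end. Next came a wide cluster at 6368201 to 6368550, at 3.64 with exon 5, and at 3.22 without it from 6368251, in the authors' deposited tables. A further group sat near the 5′ end, where the cluster at 6365501 to 6365600 had 3.46 and 2.97 and that at 6365651 to 6365800 had 2.82 and 2.57 in the authors' deposited tables. Between these, 7 enriched clusters with exon 5 filled 6371051 to 6372950 at 1.16 to 2.55, and 6 without it filled 6371001 to 6372650 at 0.71 to 2.57, from the authors' deposited tables. No listed Puf60 cluster between 6368751 and 6370950 was enriched for either isoform. Of 25 matched pairs in Sf1, 14 were enriched in both tables, and the median difference between the isoforms was 0.01.

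Rbm38 shared part of these places in Sf1. Its highest cluster, 6376851 to 6377150, stood at 4.16 in the authors' deposited table. Where the Puf60 clusters overlapped it, the authors' deposited tables gave 1.69 and 0.74 with exon 5 and 0.43 and 0.90 without. At the Puf60 maximum, 6376201 to 6376300, Rbm38 was also enriched, at 2.25 in the authors' deposited table. In the middle of the gene they met at some places and not at others. Under the wide Puf60 cluster from 6368201 to 6368550, Rbm38 was enriched at 1.52, 1.39 and 0.72 in the authors' deposited table, beside a cluster at -0.28 that was not. At 6371051 to 6371100 all proteins were enriched, with 1.16, 0.71 and 1.13 in the authors' deposited tables. They differed at 6372051 to 6372150, where the isoforms had 2.49 and 2.55 and Rbm38 had -0.29 over the first 50 nt in the authors' deposited tables. A cluster at 6369951 to 6370000 had 2.29 for Rbm38, while the overlapping one of Puf60 without exon 5 had 0.42 and was not enriched in the authors' deposited tables.

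Sf3b1, the U2 snRNP scaffold (gene 81898, chromosome 1, 54985169 to 55027501, minus strand), carried most of its enriched Puf60 clusters in one region. With exon 5 all 7 enriched clusters lay between 55014536 and 55016435, which begins 11066 nt from the 5′ end of a gene of 42333 nt. Without exon 5, 8 of 12 lay in the same region, up to 55016485. The highest was at the distal edge, 55014536 to 55014635 with exon 5 and to 55014585 without it, with 3.94 and 3.67 in the authors' deposited tables. Clusters starting at 55016186 had 3.29 and 3.23, those starting at 55015586 had 2.86 and 2.67, and those ending at 55015035 had 2.83 and 2.13, in the authors' deposited tables. The other 4 enriched clusters without exon 5, at 54995486, 54998236, 55012186 and 55019386, had 1.77, 0.91, 1.95 and 1.68 in the authors' deposited table. None of these 4 met a listed cluster with exon 5. Over the whole gene, 6 of the 12 had no listed counterpart with exon 5. The share over all enriched clusters without exon 5 was 30.5%. For Rbm38 the region held a single enriched cluster, 55015186 to 55015235, at 0.75 in the authors' deposited table. Its highest cluster, 54987036 to 54987285, had 4.27, and the overlapping cluster of Puf60 without exon 5 had -0.30 in the authors' deposited tables.

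U2af2, the pyrimidine tract binding subunit of U2AF (gene 22185, chromosome 7, 5060885 to 5079945, plus strand), held the strongest Puf60 clusters of the set. They lay in a run of 1500 nt, 5068001 to 5069500, which starts 7116 nt from the 5′ end. With exon 5, 6 of the 11 enriched clusters of the gene lay there, and without it 4 of 9. At its distal edge the cluster 5069201 to 5069500 reached 6.01 with exon 5 in the authors' deposited table. Without exon 5 the authors' deposited table has 1 cluster of 6.08 from 5068801 to 5069500. These values lie above the 99th percentile of enriched clusters in each table, 5.84 and 6.00. Towards the 5′ side of the run the log2 folds were lower, with 5.28, 3.75, 3.85, 3.30 and 1.80 with exon 5 and 4.64, 5.03 and 3.07 without, in the authors' deposited tables. Farther upstream, clusters that end at 5066400 had 2.88 and 3.55, and the cluster 5067451 to 5067500, listed only without exon 5, had 3.26, in the authors' deposited tables. Rbm38 was enriched at 5069201 to 5069300 with 1.27 in the authors' deposited table, and its cluster 5067101 to 5067150, at 2.96, had no Puf60 counterpart.

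Near the 3′ end of U2af2 all proteins were enriched. The Rbm38 cluster 5079451 to 5079900 had 3.25, and over it the isoforms had 1.41 and 1.60 with exon 5 and 1.29 without, in the authors' deposited tables. In the set, only U2af2 and Sf1 had enriched Puf60 clusters of both isoforms over the highest Rbm38 cluster.

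**Figure D3:**
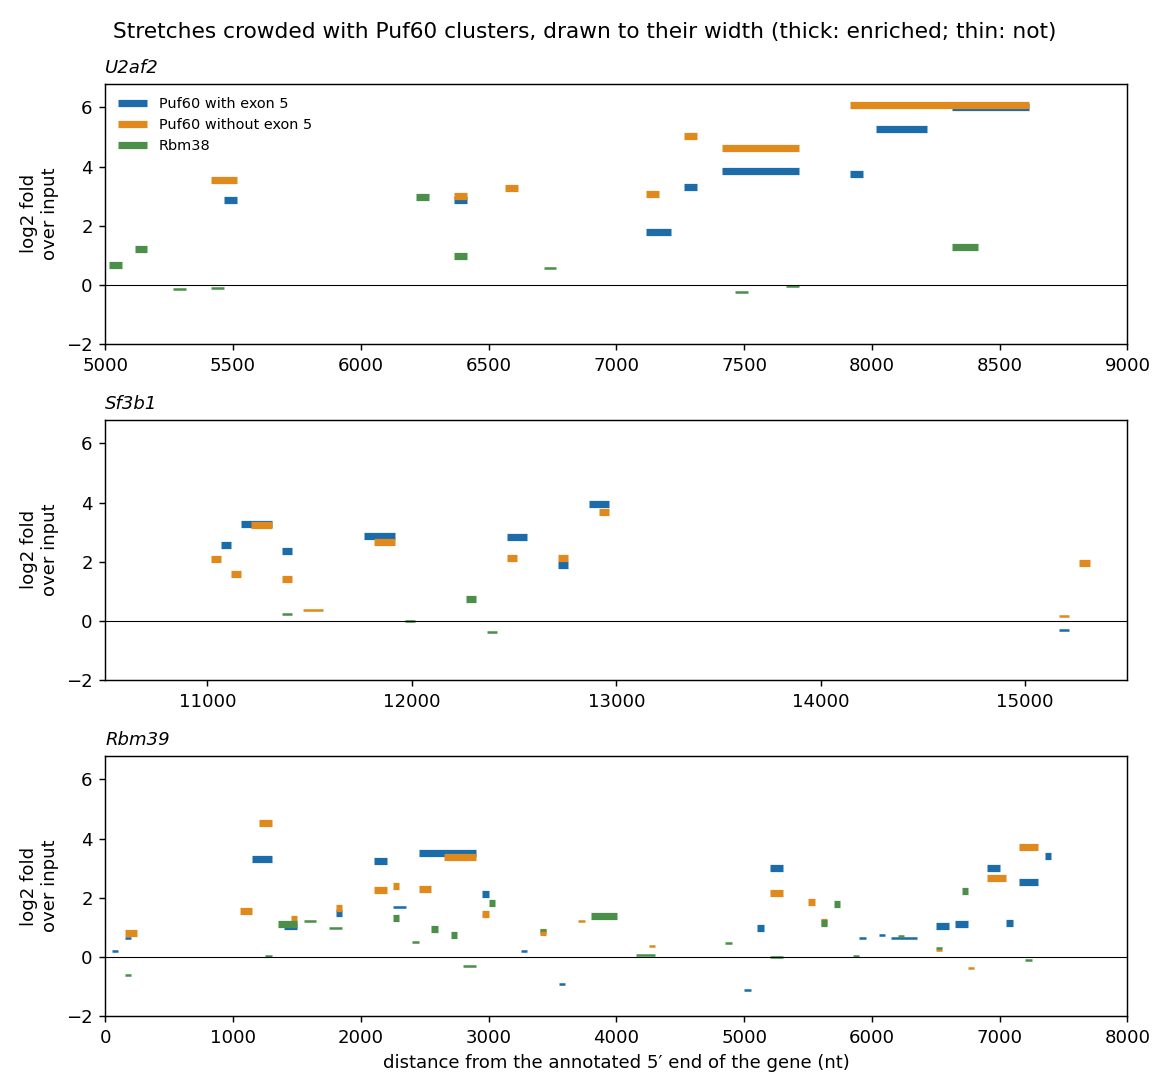
Clusters of U2af2, Sf3b1 and Rbm39 drawn to their width, with the distance from the annotated 5′ end in nt (horizontal axis) and the log2 fold over input (vertical axis); thick bars are enriched and thin bars are not. In U2af2 the Puf60 bars climb to 6.01 and 6.08 at the distal edge of the run, where Rbm38 has 1.27, and in Sf3b1 the thick Puf60 bars of the left-hand group stand between 1.43 and 3.94, within 2000 nt.

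U2af1, the small U2AF subunit that contacts the AG (gene 108121, chromosome 17, 31647081 to 31659148, minus strand), had few enriched Puf60 clusters, none above 2.55 in the authors' deposited tables. With exon 5 its 4 enriched clusters, starting at 31648286, 31651686, 31652086 and 31655036, had 2.54, 2.24, 0.85 and 1.21 in the authors' deposited table. Without exon 5 they started at 31648286, 31648886, 31651686 and 31652536 and had 2.55, 1.36, 1.66 and 1.54 in the authors' deposited table. The isoforms thus shared the cluster 31648286 to 31648335, their highest, and that at 31651686 to 31651735. The clusters with exon 5 starting at 31652086 and 31655036 were also listed without it, at 1.01 and 0.45 in the authors' deposited table. Neither was enriched there, though the former had a p under 0.05. Rbm38 had 7 enriched clusters in U2af1, the highest of the whole set for this protein at 31647086 to 31647235, with 4.87 in the authors' deposited table. Over it both isoforms lay below input, at -0.87 and -0.97 in the authors' deposited tables. None of the 7 overlapped an enriched Puf60 cluster of either isoform. Few did in the whole table, with 12.4% of all enriched Rbm38 clusters over one with exon 5 and 11.5% over one without.

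Puf60 itself, the U2af2 relative that was tagged (gene 67959, chromosome 15, 76070182 to 76082537, minus strand), had 12 of 15 clusters enriched with exon 5 and 7 of 13 without. RNA of the transgene and of the resident gene was not separated here. Both isoforms peaked at 76079536 to 76079585, with 4.88 and 4.79 in the authors' deposited tables, 2976 nt from the 5′ end at the cluster's centre. With exon 5 a cluster of nearly this size stood at 76072586 to 76072635, at 4.44 in the authors' deposited table. Without exon 5 this place fell within a wider cluster, 76072436 to 76072635, at 2.83, while Rbm38 had -0.25 at 76072586 to 76072635, in the authors' deposited tables. The other enriched clusters with exon 5 ran from 0.74 to 2.57, and those without from 1.15 to 1.57, in the authors' deposited tables. Within 2000 nt of the 3′ end, 5 clusters were enriched with exon 5 and 2 without. The closest of the listed ones, 76070236 to 76070285, was below input for both isoforms, at -0.45 and -0.39, under the Rbm38 cluster of 4.43 that ends at 76070335, in the authors' deposited tables.

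By number of enriched clusters in the 3 tables (12, 7 and 1), the genes nearest to Puf60 among 6127 protein-coding genes were Bdp1 and Pnisr (10, 8 and 1 each), Kpna2 (9, 7 and 1), Nop56 (13, 10 and 1) and Rpl4 (8, 7 and 1). The likeness is the Euclidean distance of log2(n + 1), from 0.29 for Bdp1 to 0.53 for Rpl4, over 3 values only. Bdp1 encodes a subunit of the RNA polymerase III factor TFIIIB, Pnisr a splicing-associated SR-like protein, Kpna2 a nuclear import receptor, Nop56 a core snoRNP protein and Rpl4 a ribosomal protein.

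Rbm39, a splicing factor with U2af2-like RNA-binding domains (gene 170791, chromosome 2, 156147239 to 156180238, minus strand), had the most clusters, concentrated towards its 5′ end. Between 156176786 and 156179185, which begins 1053 nt from the 5′ end, 10 of 23 clusters enriched without exon 5 lay in 2400 nt. With exon 5, 6 of 21 lay between 156177236 and 156179085. The widest ran from 156177336 to 156177785 with exon 5 and to 156177585 without it, at 3.51 and 3.39 in the authors' deposited tables. The cluster that starts at 156178936 had 3.30 and 4.52, the latter the highest of the gene without exon 5, in the authors' deposited tables. A second group lay between 156172836 and 156173335, with 3.42, 2.54, 1.15 and 3.01 with exon 5 and 3.73 and 2.66 without, in the authors' deposited tables.

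In the body of Rbm39 listed clusters were fewer. That at 156167736 to 156167785 had 3.27 and 3.74, and that at 156152536 to 156152585 had 3.15 and 2.43, in the authors' deposited tables. The highest with exon 5, 156149286 to 156149385, had 4.16, and the overlapping one without it, from 156149336, had 2.63, in the authors' deposited tables. At the 3′ end Rbm38 had 6 enriched clusters between 156147336 and 156148085, at 4.20, 3.79, 2.69, 1.26, 2.13 and 2.39 in the authors' deposited table. No Puf60 cluster was enriched within 2000 nt of this end, where the 2 listed with exon 5 had 0.36 and -0.20 and the 3 without had 0.70, 0.11 and -0.23 in the authors' deposited tables. Of these, the cluster at 0.70 was among those with a p under 0.05 that were not counted as enriched. At 156178936 to 156178985, under the highest Puf60 cluster of the 5′ part, Rbm38 had 0.04 in the authors' deposited table. Under the wide one from 156177336 to 156177785, the Rbm38 clusters had -0.29, 0.76 and 0.95 in the authors' deposited table, the last 2 of them enriched.

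Rbm17, also known as SPF45 (gene 76938, chromosome 2, 11585439 to 11603199, minus strand), was the exception in the set. It had no listed cluster with exon 5 and 2 without it, at 0.37 and -0.00 in the authors' deposited table, neither of them enriched. Rbm38 had 2 listed clusters, both enriched, at 11585436 to 11585535 (3.86) and 11585886 to 11585935 (0.99) in the authors' deposited table. A place with no listed cluster has no value, which is not a value below input.

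The isoforms are set against each other by the design. With exon 5, 53 of 74 enriched member clusters (71.6%) lay over an enriched one of the other isoform, and in reverse 50 of 72 (69.4%), where all enriched clusters gave 64.2% and 63.7%. With 50% of both clusters required, the member shares were 59.5% and 61.1%, against 58.9% and 58.7%. Matching clusters by their largest mutual overlap gave 76 pairs in 6 genes, of which 49 were enriched in both tables, 7 with exon 5 alone, 6 without it alone and 14 in neither. Over all pairs these shares were 43.7%, 5.48%, 4.21% and 46.6%. Over these pairs the log2 fold with exon 5 exceeded that without it by a median of 0.08 (SD over pairs 0.73), close to the 0.10 (SD 0.71) over all 20187 pairs. Of the 62 member pairs enriched in at least 1 table, the value with exon 5 was the higher by over 1 in 5 and the lower by over 1 in 7. Over all such pairs these shares were 9.11% and 6.63%. No difference could be set against a spread between replicates.

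**Figure D4:**
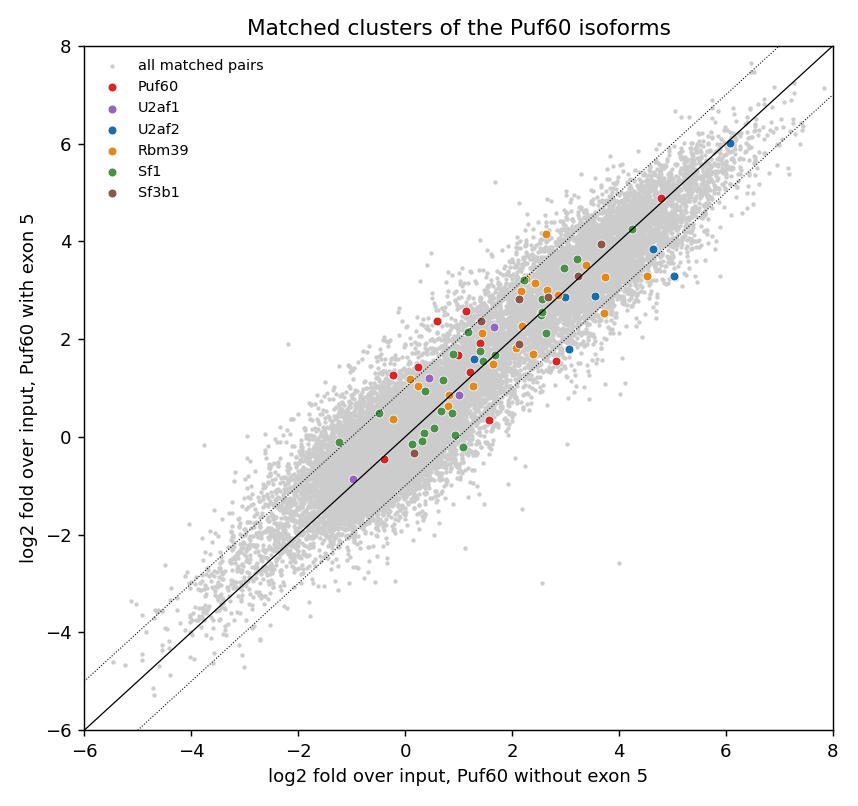
Log2 fold over input of matched clusters, Puf60 without exon 5 on the horizontal and with exon 5 on the vertical axis; grey points are all 20187 pairs, coloured points the 76 pairs of the described genes, the solid line marks equality and the dotted lines a difference of 1. Most coloured points lie between the dotted lines, and 6 of the 7 U2af2 points lie below the solid line.

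Among the genes, U2af2 and Puf60 leaned in opposite directions. At U2af2, 6 of 7 pairs were lower with exon 5 (median -0.67), among them 5068151 to 5068200, with 3.30 against 5.03, and the pair starting at 5068001, with 1.80 against 3.07, in the authors' deposited tables. At Puf60, 8 of 11 pairs were higher with exon 5 (median 0.52). Its widest were 76074636 to 76074685 (2.38 against 0.60) and 76077686 to 76077735 (1.27 against -0.22) in the authors' deposited tables. Pairs starting at 76070436 (2.57 against 1.15) and 76070836 (1.44 against 0.25) with exon 5 went the same way in the authors' deposited tables. Pairs starting at 76072436 (1.56 against 2.83) and 76075586 (0.35 against 1.57) went the opposite way in the authors' deposited tables. The cluster with exon 5 at 76072586, at 4.44, lay under the same wide cluster as the first of these.

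In the other genes the pairs more than 1 apart went both ways. At Rbm39 the pair starting at 156149286 (4.16 against 2.63) was higher with exon 5, as was 156168786 to 156168835 (1.19 against 0.09), enriched in neither of the authors' deposited tables. The pairs starting at 156172936 (2.54 against 3.73) and 156178936 (3.30 against 4.52) were lower with exon 5 in the authors' deposited tables. At Sf1, 6367151 to 6367200 (-0.20 against 1.08) was lower with exon 5, and 6370901 to 6370950 (-0.10 against -1.24), enriched in neither, was higher, in the authors' deposited tables. Of these 14 pairs, 7 had the same start and end in both tables, and in the other 7 the values cover stretches that differ. U2af1 and Sf3b1 had no pair more than 1 apart, with medians of 0.10 over 5 pairs and 0.19 over 7.

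Against Rbm38, Puf60 stood higher over these genes than over the whole tables. Over 43 matched pairs the median of Puf60 with exon 5 minus Rbm38 was 0.74, and over 50 pairs that of Puf60 without exon 5 minus Rbm38 was 0.29. The values over all matched pairs were -0.64 (14851 pairs) and -0.92 (16078 pairs). The second member value was -0.01 when an overlap of 50% of both clusters was required. Over pairs enriched in at least 1 table the member values were 1.32 and 1.04, against -0.95 and -1.43 over all such pairs. Of 35 member pairs enriched with exon 5 or for Rbm38, 19 were more than 1 higher for Puf60 and 8 for Rbm38, against 27.6% and 49.3% of all such pairs. For Puf60 without exon 5 they were 22 and 12 of 41, against 24.2% and 56.1%. The largest excess of Puf60 with exon 5 was at U2af2, 5069201 to 5069500, by 4.74, and the largest excess of Rbm38 over it was at the 3′ end of U2af1, where the difference was -5.73.

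The share of enriched clusters where Puf60 and Rbm38 met was near that of the whole tables when counted from Puf60, and above it when counted from Rbm38. Enriched Rbm38 clusters were overlapped by 14 of 74 with exon 5 (18.9%, against 22.2% of all enriched clusters) and 14 of 72 without (19.4%, against 20.0%). Counted from Rbm38, 16 of 52 (30.8%, against 12.4%) overlapped an enriched cluster with exon 5 and 15 of 52 (28.8%, against 11.5%) one without. The shares over all enriched Rbm38 clusters include genes with no enriched Puf60 cluster. Rbm38 had an enriched cluster in 5144 protein-coding genes, and Puf60 in 3440 with exon 5 and 3460 without. With 50% of both clusters required, the shares from Puf60 were 10.8% with exon 5 and 12.5% without, against 16.4% and 14.8% of all enriched clusters. Those from Rbm38 were then 15.4% and 17.3%, against 9.26% and 8.41%. With any overlap, Sf1 gave 9 and 7 of its 16 Rbm38 clusters, Rbm39 4 and 4 of 15, and U2af2 3 and 4 of 8. The remaining genes gave none.

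Rbm38 had its highest cluster near the 3′ end in each of the 7 genes. The centres lay 46 nt from that end in Rbm17, 79 in U2af1, 103 in Puf60, 146 in Rbm39, 269 in U2af2, 1037 in Sf1 and 1991 in Sf3b1. All 7 were thus within 2000 nt, where 64.2% of the 5088 protein-coding genes with an enriched Rbm38 cluster had their highest, and Sf3b1 was just inside this limit. Their log2 folds were 3.86, 4.87, 4.43, 4.20, 3.25, 4.16 and 4.27 in the same order in the authors' deposited table. For each Puf60 isoform 2 of 6 genes, U2af1 and Sf1, had the highest cluster within 2000 nt, against 18.5% of genes with exon 5 and 18.6% without. This limit was chosen after the data were seen. Within 1000 nt lay the highest cluster of 0 of 6 genes for either Puf60 isoform, against 9.90% and 9.66% of genes, and of 5 of 7 for Rbm38, against 51.1%. In Rbm39 with exon 5 it was just outside, at 2096 nt.

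**Figure D5:**
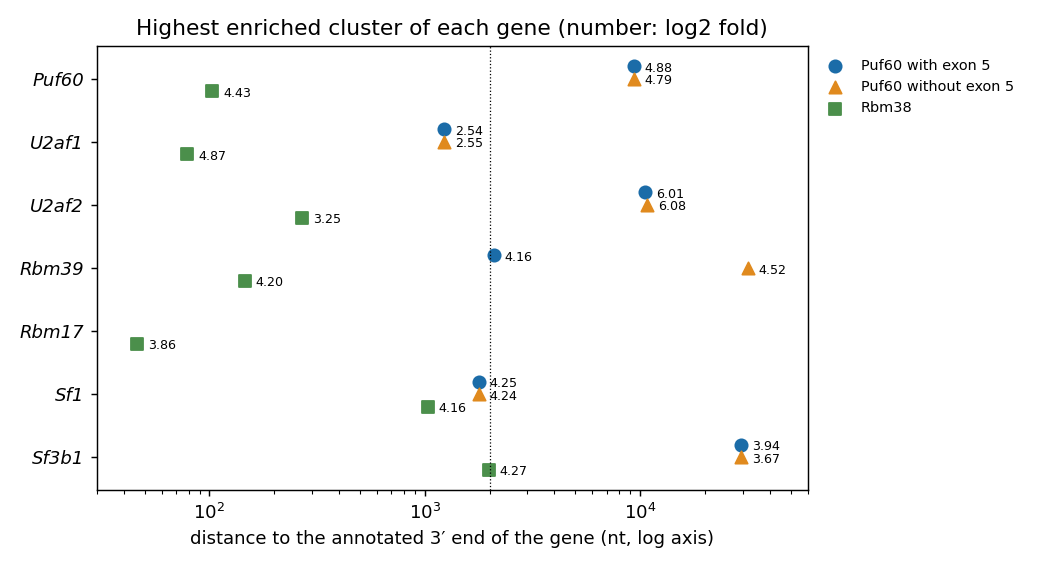
Distance of each gene's highest enriched cluster to the annotated 3′ end in nt (horizontal log axis) for Puf60 with exon 5 (circles), Puf60 without exon 5 (triangles) and Rbm38 (squares), with its log2 fold printed beside it; the dotted line marks 2000 nt. The Rbm38 squares lie between 46 and 1991 nt, and in Puf60, U2af2, Rbm39 and Sf3b1 the Puf60 symbols lie to the right of the line.

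Counting all member clusters within 2000 nt of a 3′ end, Rbm38 had 18 of 20 listed clusters enriched there and 34 of 103 farther away. Over all clusters on the strand of a single protein-coding gene, 82.1% of those near and 40.6% of those farther were enriched for Rbm38. For Puf60 the share near the end was not the higher one, with 11 of 18 near and 63 of 99 farther with exon 5, and 9 of 20 near and 63 of 111 farther without. Over all such clusters 25.1% near and 44.1% farther were enriched with exon 5, and 20.3% and 42.6% without. The annotated end of a gene need not be the end used in these cells, and exons and untranslated regions were not analysed here.

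Other genes of branch point and 3′ splice site recognition were taken from a list of 36, of which 35 were found in the reference. Their clusters were enriched for Puf60 at 185 of 289 (64.0%) with exon 5 and 202 of 355 (56.9%) without, and for Rbm38 at 183 of 352 (52.0%), read against the same 39.1%, 36.1% and 50.9%. The 20 genes of the U2 snRNP and its partners gave 53.3%, 52.0% and 46.8%. The 12 genes of pyrimidine tract or 3′ splice site regulators gave 70.2%, 59.6% and 54.0%. In the former group 9, 8 and 17 of 20 genes had an enriched cluster, and in the latter 10 of 12 in each table. Of all 21900 protein-coding genes in the reference, transcribed in these cells or not, 15.7%, 15.8% and 23.5% had one. Counted over genes with a listed cluster, the former group gave 9 of 12, 8 of 14 and 17 of 18 and the latter 10 of 11 in each table, against 64.6%, 62.9% and 84.0%. The 3 matched U2AF relatives held few clusters, of which 2 of 3, 1 of 2 and 3 of 4 were enriched.

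A few genes supplied most of these clusters. Ptbp2, the neuronal pyrimidine tract binding protein, had 35, 34 and 44 enriched clusters (with exon 5, without it, Rbm38), and Fubp1, a single-stranded nucleic acid-binding protein that is a known partner of Puf60, had 35, 48 and 27. Ddx39b, the helicase UAP56 that works with U2AF, had 18, 23 and 8, Tial1, a U-rich RNA-binding protein, 16, 17 and 14, Sf3b3, a partner of Sf3b1, 15, 15 and 10, and Ptbp1 12, 9 and 7. The highest log2 folds of Fubp1 were 7.24, 7.28 and 4.07 in the authors' deposited tables, and those of Sf3b3 were 4.74, 4.70 and 3.66. By contrast, Sf3a1, Sf3a2 and Sf3a3, the SF3a subunits of the U2 snRNP, had no enriched Puf60 cluster and 3, 1 and 1 of Rbm38. Few Puf60 clusters were listed there at all, none in Sf3a1 and Sf3a2 and 3 in Sf3a3, all without exon 5. U2af1l4, a U2af1 paralogue, had 1 enriched cluster with exon 5, at 3.85 in the authors' deposited table, and Zrsr2, the U2af1 relative of the minor spliceosome, had 1 per isoform, at 3.35 and 2.63. Sf3a1 to Sf3a3, U2af1l4 and Zrsr2 were named after their values were seen.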

How the data were processed

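RNA bound by 3 Flag-tagged proteins was measured by iCLIP in N2A cells, per the labels' protocols. The authors deposited 1 table of clusters per protein, with a log2 fold, a p-value and an FDR of their own comparison, per the file headers. The fold was read as CLIP over input. TopHat and edgeR, and the builds NCBIM37 and mm10, appear in the submitters' processing notes with no version or role. Library depth is unknown, and how clusters were called and replicates handled is not given in the sources used here.

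Gene bodies came from RefSeq GRCm38.p6, the mm10 build, and coordinates are 1-based. A cluster start modulo 50 of 0 was read as plus and of 35 as minus. The gene strand came from the RefSeq promoter table for 5 of the 7 genes. For Puf60 and U2af2 it came from their clusters, all of 1 offset, by a rule of at least 3 clusters with 80% in agreement. Overlap needed 1 nt on the same strand. The whole-table share for protein-coding genes took clusters that lay in 1 such gene only. Stretches joined enriched clusters at most 500 nt apart. The limit of 2000 nt, the stretches and the comparison with Rbm38 were chosen after the data were seen. Python 3.11.15, pandas 2.3.3 and numpy 2.4.6 were used, and the assignment and matching code was tested on simulated data. No statistical test was run on the deposited values, and the tables hold 0 further columns of values.

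The members and lists were chosen with earlier results of these data known. Genes named in the text were the 7 members, every member pair of the isoforms more than 1 apart, the 6 list genes with most enriched clusters and the 5 genes most like Puf60. Sf3a1, Sf3a2, Sf3a3, U2af1l4, Zrsr2 and the cell type markers were named besides these. The alternatives were a threshold of 0.01, Benjamini-Hochberg adjustment of the deposited p-value, other assignment, a log2 fold of at least 1, an overlap of 50% and the set without Puf60. Sequences of clusters and exons were not analysed here, and some marker genes are not reported here.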

Additional observations from a re-analysis of the deposited data

Results flagged for a closer look

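On the strand opposite to Rbm39, outside the clusters counted for that gene, the Rbm38 table lists 1 cluster at chromosome 2, 156164501 to 156164550, with a log2 fold of 2.49 over input (adjusted p of 6.22e-21 in the authors' deposited table). It is the only cluster on the opposite strand in any of the 7 genes and any of the 3 tables, and it lay 15712 nt from the 5′ end of Rbm39. What RNA it comes from was not tested.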

How the results depend on the processing

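Of 150 comparisons of a result with an alternative setting, 141 stayed within the range set for that kind of result. Most of these were counts in single genes, of which 103 stayed and 2 moved. For the main results 38 stayed, 6 moved and 1 reversed. Assignment by any overlap with the gene body changed no count, so its agreement says little. For medians the range was the SD over pairs, so a change from 0.29 to 1.04 counted as staying. Adjusting the deposited p-value by Benjamini-Hochberg gave 83, 80 and 68 enriched clusters in the 7 genes for Puf60 with exon 5, without it and Rbm38, against 74, 72 and 52. A threshold of 0.01 gave 73, 70 and 50, and a log2 fold of at least 1 gave 70, 66 and 40. Shares over the whole tables were not computed under these settings, so the counts do not show how the members compare there. Leaving out Puf60, an alternative added after the data were seen, gave 62 of 102, 65 of 118 and 51 of 121. These are 60.8%, 55.1% and 42.1%, against 39.1%, 36.1% and 50.9% of all listed clusters. With a log2 fold of at least 1 required, U2af2 held 5 enriched clusters of Rbm38 in place of 8 and Rbm17 held 1 in place of 2. An overlap of 50% of both clusters lowered the shares that met an enriched cluster to 59.5% (Puf60 with exon 5 meeting Puf60 without it), 10.8% (with exon 5 meeting Rbm38), 15.4% (Rbm38 meeting Puf60 with exon 5) and 17.3% (Rbm38 meeting Puf60 without it), since it leaves out partial overlaps. It also turned the median of Puf60 without exon 5 minus Rbm38 from 0.29 to -0.01, over 38 pairs in place of 50. Taking only pairs enriched in at least 1 table moved it to 1.04, and that with exon 5 from 0.74 to 1.32. Within 1000 nt of the 3′ end lay the highest cluster of 5 genes for Rbm38 and of 0 genes for either Puf60 isoform, and this limit was also added after the data were seen. Leaving out each replicate was not run. No paired analysis was possible because the tables hold no values per library. Intervals and floors that need read numbers could not be given, as the depth is unknown.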

Other observations

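Of the member clusters with a p under 0.05 beside an adjusted p of 1, Sf1 held 4, 7 and 8 (Puf60 with exon 5, without it, Rbm38) and Rbm39 held 7, 2 and 6. The smallest p-values among them were at Rbm39, 156177886 to 156177985, with a log2 fold of 1.70 and a p of 5.89e-18 with exon 5, and at Sf1, 6367951 to 6368000, with 1.96 and a p of 7.98e-13 for Rbm38, in the authors' deposited tables. At the former place the cluster without exon 5, 156177936 to 156177985, had 2.40 and was enriched in the authors' deposited table. The criterion behind these adjusted values is not given in the sources used here. A further 3, 2 and 1 member clusters had no p-value.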
